A study of Mus musculus with 74 samples.

Results

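RNA-seq read counts compared 2 libraries labelled as Cdx2-deleted at E13 with 2 libraries labelled as wild-type (WT) small intestine at E18, 4 of the 31 RNA libraries and 74 samples of the series. The members were taken by their library labels, and the comparison was chosen with earlier results of these data known. The first group was Cdx2f/f; Villin-Cre on a B6;129 mixed background, given 5 mg of tamoxifen by gavage and labelled as collected at E16, the mouse embryonic day, 3 days after the labelled deletion. Villin-Cre, here one that needs tamoxifen, acts in the gut epithelium, so other gut cells of these embryos keep the gene. The second group was untreated CD1 wild type collected at E18. The labels gave both groups as small intestinal epithelium, and they do not say whether the 2 libraries of a group came from separate embryos or litters. Trypsin freed the cells labelled E16, which were then sorted for Epcam, an epithelial surface protein, while the E18 villi were freed with EDTA, dissociated with TrypLE and not sorted. Other groups serve for reference. E16 WT was untreated CD1, prepared with trypsin and the Epcam sort. The libraries labelled deleted at E10 were Cdx2f/f; Shh-Cre, untreated and collected at E16 with the same sort, and those labelled deleted at E15 were Cdx2f/f; Villin-Cre given 5 mg of tamoxifen and collected at E18 without a sort. Adult ileum labelled knockout was Cdx2f/f; Villin-Cre given 1 mg of tamoxifen a day on 5 days, and adult WT was Cdx2f/f given the oil vehicle. Between the 2 main groups, strain, tamoxifen, labelled age and cell preparation changed together with the labelled genotype and cannot be told apart from it.

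CDX2 is a homeodomain transcription factor that the intestinal epithelium uses to hold its identity, and loss of it in endoderm is known for turning on genes of the stomach. Late in gestation the same epithelium builds its villi and brush border and starts the digestive enzymes used for milk. Sucrase-isomaltase and other enzymes of the adult diet normally rise around weaning. The comparison asks how libraries labelled E16 and Cdx2-deleted stand against a WT intestine of a later labelled age.

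The promoters of 4 genes with large differences in either direction are printed first, to show the sequence beside genes the results turn on. Each is 300 bases on GRCm38.p6 as given by RefSeq, from 250 bases before the start of the gene to 50 after it, 5′ to 3′ on the strand of the gene. Sis (chr3:72967814-72968113, minus strand) and Lct (chr1:128328269-128328568, minus strand) encode the digestive enzymes sucrase-isomaltase and lactase and were lower in the libraries labelled deleted at E13. Gkn2 (chr6:87373115-87373414, plus strand), a gastrokine of the stomach lining, and Akp3 (chr1:87124704-87125003, plus strand), an intestinal alkaline phosphatase, were higher. Capitals mark matches on either strand to TTTATNG for CDX factors, CAAAGTNCA for HNF4 and AGATAA for GATA factors.
Sis: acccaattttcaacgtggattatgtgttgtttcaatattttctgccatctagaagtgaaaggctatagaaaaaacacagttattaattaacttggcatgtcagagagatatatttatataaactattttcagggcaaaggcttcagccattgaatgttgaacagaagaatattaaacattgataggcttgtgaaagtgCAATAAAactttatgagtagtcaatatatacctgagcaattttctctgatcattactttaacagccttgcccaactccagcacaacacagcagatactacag
Lct: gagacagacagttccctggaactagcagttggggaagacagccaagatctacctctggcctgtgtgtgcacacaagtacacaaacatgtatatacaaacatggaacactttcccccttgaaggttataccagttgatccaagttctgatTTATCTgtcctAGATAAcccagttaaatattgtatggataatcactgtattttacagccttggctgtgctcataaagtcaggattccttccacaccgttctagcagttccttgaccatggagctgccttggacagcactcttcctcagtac
Gkn2: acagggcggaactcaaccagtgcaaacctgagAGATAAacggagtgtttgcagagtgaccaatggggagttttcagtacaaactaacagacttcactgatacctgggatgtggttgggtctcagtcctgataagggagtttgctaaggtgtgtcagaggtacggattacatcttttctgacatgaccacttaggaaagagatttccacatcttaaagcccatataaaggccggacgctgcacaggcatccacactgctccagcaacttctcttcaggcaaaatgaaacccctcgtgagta
Akp3: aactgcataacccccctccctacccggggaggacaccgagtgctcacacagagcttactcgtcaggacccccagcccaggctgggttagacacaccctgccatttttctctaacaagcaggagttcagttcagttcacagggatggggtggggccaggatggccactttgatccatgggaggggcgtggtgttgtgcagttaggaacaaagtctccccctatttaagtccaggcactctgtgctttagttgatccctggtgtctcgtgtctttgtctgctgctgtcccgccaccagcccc
The Sis promoter held 1 CDX match, on the strand opposite to the gene, the Lct promoter 2 GATA matches and the Gkn2 promoter 1 GATA match, and no letters of these 3 motifs were found in the Akp3 window. The CDX motif can overlap a TATA box, since CTATAAA is a match to it on the opposite strand. TTTATNG was in 10.9% of all 32851 promoters, CAAAGTNCA in 1.41% and AGATAA in 11.2%. Of the 22 absorptive genes called lower, described further down, 18 had a promoter entry and 8 of them held TTTATNG, or 3 (Fabp1, Fabp2 and Mep1a) once matches within CTATAAA were left out. TTTATNG outside CTATAAA was in 7.61% of all promoters. Of the 17 gastric genes called higher, 10 had an entry, 0 held TTTATNG and 5 held AGATAA.

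The labels were checked first. Cdx2 stood at 213 and 217 CPM (counts per 1e6, scaled by TMM) in the libraries labelled deleted at E13 and at 200 and 206 in E18 WT, which was not called (log2 fold change 0.08, SE 0.28, adjusted p 0.906, edgeR). It was 196 and 218 CPM in E16 WT, 388 and 371 in those labelled deleted at E15, and 14.5 to 27.5 in the 3 with the label deleted at E10. In adult ileum it was 365 and 374 CPM in WT and 778 and 753 in the libraries labelled knockout. The Cdx2 level thus went against the label in the libraries labelled deleted at E13, and also in those labelled deleted at E15 and adult knockout. Counts per gene cannot show whether a single exon was removed. Library totals were 17476863 to 33756871 counts.

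Fetal genes set the labelled E16 age apart. H19, an imprinted non-coding RNA of growing fetal tissue, had 1041 and 923 CPM in E16 WT but 0.661 and 0.803 in the libraries labelled deleted at E13 and 0.164 and 0.0549 in E18 WT. The growth factor gene Igf2 stood at 901 and 851 CPM in E16 WT, a mean of 10.4 in the labelled deletion and 2.30 and 1.87 in E18 WT. Summed over 17 fetal timing and imprinted growth genes, the labelled E13 deletion had 153 and 156 CPM and E18 WT 138 and 144, against 4167 and 4481 in E16 WT. The sum in adult WT ileum was 118 and 166 CPM. Summed markers of other cells were also higher in E16 WT, where the mesenchyme markers summed to 1611 and 1759 CPM, against 80.5 and 85.6 in the libraries labelled deleted at E13 and 59.9 and 56.7 in E18 WT. Blood and endothelial markers summed to 214 and 225 CPM in E16 WT, against 7.15 and 6.91 and against 4.93 and 5.32. Liver and pancreas markers summed to 780 and 746 CPM in E16 WT, against 244 and 247 and against 14.7 and 19.9. The part of these cells in the fetal genes was not tested. Within the list 8 of 17 genes were called higher and 3 lower against E18 WT, beside 8.19% and 7.91% of all genes tested. Igf2 rose (log2 fold change 2.34, SE 0.33, adjusted p 2.3e-05, edgeR), while the RNA-binding protein gene Igf2bp3 fell from 5.18 and 5.16 CPM to 1.28 and 0.892 (log2 fold change -2.24, SE 0.17, adjusted p 1.3e-08, edgeR).

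The E18 WT libraries carried genes of a mature gut. Sis was at 9169 and 9281 CPM there, 6.82 and 7.15 in E16 WT and 6920 and 8576 in adult WT ileum. Pigr, the receptor that carries IgA through the epithelium, was at 13255 and 13314 CPM in E18 WT and at 5339 and 5328 in the labelled deletion, against 19.7 and 25.3 in E16 WT. Spearman's rho across 17239 genes, which are not independent replicates, was 0.932 to 0.933 between the labelled deletion and E18 WT, 0.839 to 0.841 with E16 WT, 0.935 to 0.936 with the adult libraries labelled knockout and 0.957 with those labelled deleted at E15, the highest of these groups. E18 WT itself had a rho of 0.944 to 0.953 with adult WT ileum and 0.824 to 0.826 with E16 WT. Whether the labelled age of E18 WT is right was not tested. The same rule called 2775 genes against E18 WT and 6807 (39.5%) against E16 WT, in comparisons that share the libraries labelled deleted at E13. The adult libraries came from the ileum and were made with another kit, which cannot be told apart from their age.

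**Figure D1:**
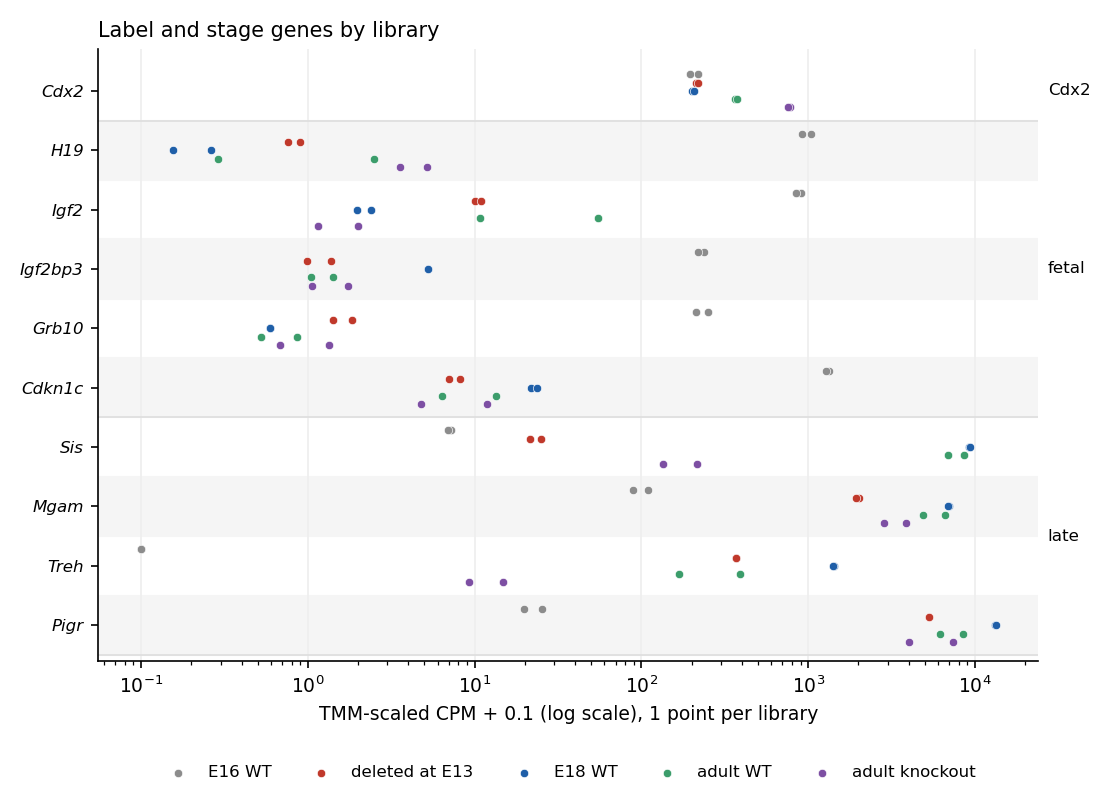
CPM plus 0.1 on a log axis for Cdx2, 5 fetal genes and 4 genes of the late or adult gut, 1 point per library, in E16 WT, libraries labelled deleted at E13, E18 WT, adult WT and adult libraries labelled knockout (2 libraries each). The libraries labelled deleted at E13 lie with E18 WT and the adult libraries for the fetal genes, far from E16 WT, and hold Cdx2 at 213 and 217 CPM.

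The 2 libraries of each group were close to each other. The chi-square of their counts per degree of freedom was 2.48 in the labelled deletion and 1.53 in E18 WT, against 9.39 to 132 in the other groups apart from 5.02 in the libraries labelled deleted at E15. They differed by more than sampling noise and were kept as 2 samples, but the spread may be technical, and p-values measure only that spread together with the one shared over the fit. For that reason the main counts below are also given with each pair summed to 1 library, a fit in which the spread comes from the other embryonic libraries.

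Of 17239 genes tested with edgeR, 2775 (16.1%) were called, at an adjusted p below 0.05 and a log2 fold change of at least 1. Relative to E18 WT, 1412 (8.19%) were higher in the labelled deletion and 1363 (7.91%) were lower. Over all tested genes the log2 fold change had a median of 0.00. With each pair summed, 853 (4.80%) were called higher and 667 (3.75%) lower. Without replicate 1 or 2 of the labelled deletion the lower genes numbered 865 and 878.

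The 10 genes per direction of largest change were taken among those with an average log2 CPM of at least 2 over the 27 embryonic libraries. These libraries include WT forestomach and hindstomach, through which a stomach gene could pass that cut. The 10 higher genes included 7 genes of the stomach that were close to absent from E18 WT. These were the proton pump subunit Atp4b, the gastrokines Gkn1 and Gkn2, the surface mucin Muc5ac, the gastric claudin Cldn18, the acidic chitinase Chia1 and the antral hormone gene Gast. The other three were the pancreatic phospholipase Pla2g1b, the growth factor binding protein Igfbp5 and 1810010D01Rik. Chia1 was at 135 and 131 CPM against 0 counts in both E18 WT libraries, at least 646-fold higher than a floor of 3 counts per library. Such floors and counting intervals cover counting error only. Pla2g1b was at 253 and 262 CPM against 0.0822 and 0, a ratio of 7805 with a 95% counting interval of 1401 to 308290. Such ratios divide the counts of each pair by its summed scaled library sizes, not the mean CPM, and this one rests on 1 count in E18 WT.

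The 10 lower genes were led by absorptive and sex-linked genes. Enpp7, the intestinal alkaline sphingomyelinase, had 0 counts in both libraries labelled deleted at E13 and 406 and 398 CPM in E18 WT, at least 3119-fold lower. Slc5a12, a lactate transporter, was at 0.0413 and 0 CPM against 601 and 605, a ratio of 28115 with a 95% counting interval of 5046 to 1110558. The transcription factor gene Osr2 had 0 counts against 46.3 and 52.2 CPM, and the nuclease gene Dnase1 0.620 and 0.446 CPM against 738 and 730. Prss30, a serine protease gene, fell by 10.01 on the log2 scale (SE 1.42, adjusted p 0.00016, edgeR), though DESeq2 did not call it (adjusted p 0.126).

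**Figure D2:**
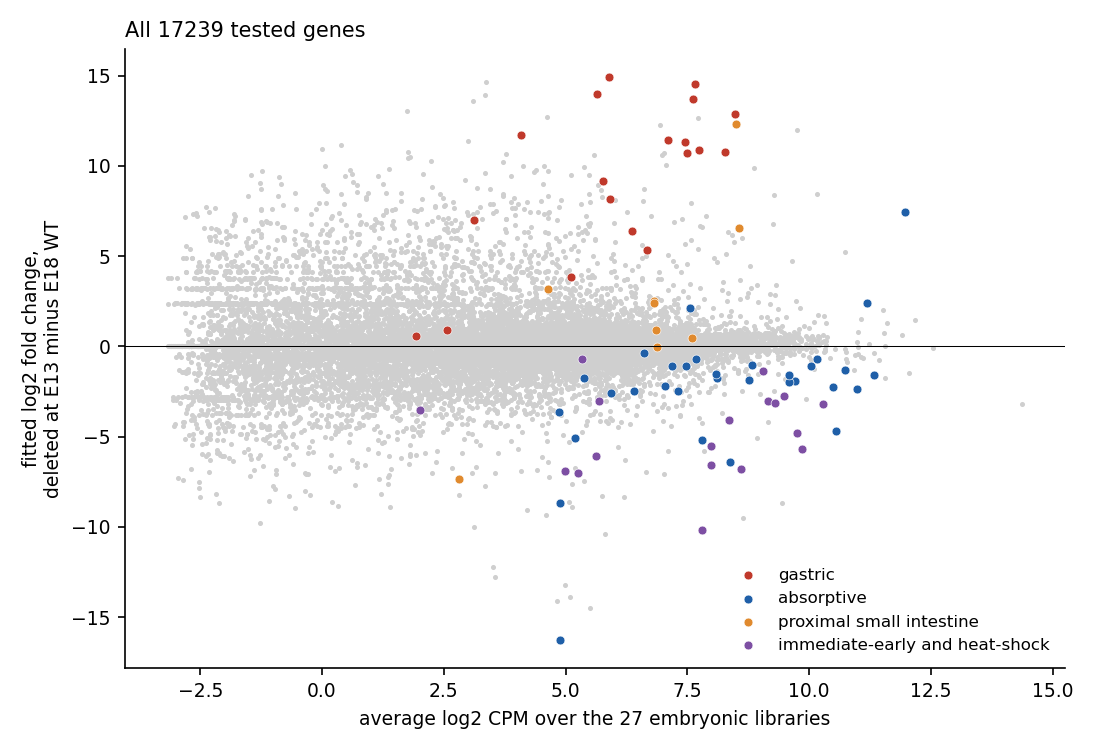
Fitted log2 fold change (libraries labelled deleted at E13 minus E18 WT, 2 each) against the average log2 CPM over the 27 embryonic libraries, 1 point per tested gene, with 4 gene lists in colour. Most gastric genes lie far above 0 and absorptive and immediate-early genes mostly below it. Fitted values of genes at 0 counts in a group depend on the prior count.

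Genes of the gastric lining rose almost as a whole list. Of 21 gastric mucous and secretory genes in the table, 19 passed the filter on low counts, 17 were called higher and 0 lower, with a median log2 fold change of 10.74 (9.17 with genes at 0 set to their bound) against 0.00 over all genes. Of all genes tested, 8.19% were called higher and 7.91% lower. The filter could keep a gene through the group where it is high. With each pair summed, 17 were called higher (4.80% of all genes). Tff1 and Lipf were at or under 3 counts in all 4 libraries, and Capn8 and Capn9 did not pass the test.

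The mucous and surface genes came first. Gkn1 was at 1278 and 1214 CPM against 0.0822 and 0.220 (log2 fold change 12.85, SE 0.96, adjusted p 2.1e-07, edgeR). Gkn2 was at 907 and 897 CPM against 0 and 0.0549, a ratio of 27410 with a 95% counting interval of 4919 to 1082647. Muc5ac was at 621 and 601 CPM against 0.0822 and 0, a ratio of 18580 with an interval of 3335 to 733909. The groups did not overlap for any of these 3 genes, which held for 77.9% of all tested genes. Tff2, a trefoil peptide of the mucous neck, was at 341 and 335 CPM against 0.329 and 0.110 (log2 fold change 10.70, SE 0.65, adjusted p 4.6e-10, edgeR), and the neck mucin Muc6 at 73.3 and 69.2 against 0.411 and 0.659 (7.01, SE 0.73, adjusted p 8.7e-07, edgeR). In the 3 libraries labelled deleted at E10, Gkn1 was at 1129 to 4587 CPM, Gkn2 at 435 to 2270, Tff2 at 719 to 2075 and Muc5ac at no more than 21.2.

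Proteases and acid secretion genes followed. Pgc, which encodes the zymogen pepsinogen C, was at 2325 and 2402 CPM against 0.822 and 1.54 (log2 fold change 10.90, SE 0.48, adjusted p 1.7e-11, edgeR). Ctse, which encodes the aspartic protease cathepsin E of surface cells, was at 1919 and 1899 CPM against 0.986 and 1.21 (10.74, SE 0.64, adjusted p 3.8e-10, edgeR). Both subunits of the parietal cell proton pump were present, Atp4a at 365 and 364 CPM against 1.40 and 1.15, and Atp4b at 157 and 159 against 0 in both, at least 768-fold higher. Intrinsic factor, Gif, was at 17.1 and 17.4 CPM against 0 in both, at least 83.8-fold higher. Cldn18 was at 69.0 and 69.9 CPM against 0 in both, at least 338-fold higher.

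Foregut transcription factors rose in part. Of 17 foregut and squamous genes tested, 4 were called higher (8.19% of all genes) and 0 lower, with 4 also when each pair was summed (4.80% of all genes). A further 6 of the 17 were at or under 3 counts in all 4 libraries. Sox2, the factor that sets the early stomach, was at 1.28 and 1.38 CPM against 0 in both E18 WT libraries, at least 6.48-fold higher, and lost its call without E18 WT replicate 2 (adjusted p 0.0547). Sox21 was at 8.64 and 7.32 CPM against 0 in both, at least 38.8-fold higher. Nkx6-3, a factor of the gastric antrum, was at 70.4 and 72.2 CPM against 0 and 0.110, a ratio of 1083 with an interval of 299 to 8944. The squamous keratin Krt15 was at 1.57 and 1.07 CPM against 1.64 and 1.37 and was not called, while the libraries labelled deleted at E10 had a mean of 1572 CPM.

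Some markers of liver, pancreas and mesenchyme were called higher as well. Of 13 liver and pancreas markers tested, 9 were called higher (8.19% of all genes) and 0 lower, or 5 higher with each pair summed, and their sum was 244 and 247 CPM against 14.7 and 19.9. Of that sum 151 and 155 CPM were Ttr, which some gut endocrine cells also make. In the libraries labelled deleted at E15 the liver and pancreas markers summed to 612 and 554 CPM. The gastric list summed to 610 and 578 CPM there, against 8769 and 8711 in the libraries labelled deleted at E13. The acinar genes Cpa1 and Cpb1 were at 7.56 and 8.21 CPM and at 6.90 and 5.22 CPM against 0 in both E18 WT libraries, and Amy2a5 was at 0 in all 4. Of 17 mesenchyme markers 7 were called higher and 1 lower (8.19% and 7.91% of all genes), or 4 and 1 with each pair summed (4.80% and 3.75%), and 4 were at or under 3 counts in all 4 libraries, with sums of 80.5 and 85.6 CPM against 59.9 and 56.7. Dcn, a fibroblast proteoglycan gene, was at 39.9 and 40.6 CPM against 0.0822 and 0, a ratio of 1224 with an interval of 219 to 48352. The part of these cells in the gastric genes was not tested. In bulk libraries more cells of a type and more RNA per cell cannot be told apart.

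Most genes of the mature absorptive cell were lower. Of 32 genes of enterocyte absorption and the brush border tested, 22 were called lower and 3 higher (7.91% and 8.19% of all genes). Their median log2 fold change was -1.82 against 0.00 over all genes. With each pair summed, 18 were called lower and 2 higher (3.75% and 4.80% of all genes). The summed level of the 32 genes differed less, at 106047 and 109035 CPM against 120435 and 121280 in E18 WT. That sum includes the higher members Akp3 and Alpi, given below.

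Enpep, the glutamyl aminopeptidase, was at 46.5 and 42.4 CPM in the labelled deletion and at 3714 and 3704 in E18 WT (log2 fold change -6.38, SE 0.38, adjusted p 3.8e-10, edgeR). Dpp4, a dipeptidyl peptidase, was at 48.4 and 47.9 CPM against 1716 and 1765 (-5.18, SE 0.33, adjusted p 9.6e-10, edgeR), and Anpep, aminopeptidase N, at 511 and 506 against 12720 and 13120 (-4.67, SE 0.37, adjusted p 1.4e-08, edgeR). Car4, a membrane carbonic anhydrase, was at 0.785 and 1.03 CPM against 359 and 372 (-8.65, SE 0.86, adjusted p 5.1e-07, edgeR). All 4 genes were far lower in both libraries of the labelled deletion. Enpp7 belongs to the same list and was called by edgeR but not by DESeq2 (adjusted p 0.112).

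Genes of lipid uptake and transport on the same list were called lower in part. The fatty acid transporter Cd36 was at 9.26 and 7.94 CPM against 294 and 298 (log2 fold change -5.10, SE 0.66, adjusted p 9.5e-06, edgeR). The chylomicron protein gene Apoa1 was at 2429 and 2567 CPM against 12526 and 13008 (-2.35, SE 0.18, adjusted p 9.2e-09, edgeR), and the fatty acid binding protein Fabp1 at 1725 and 1712 against 8281 and 8144 (-2.26, SE 0.42, adjusted p 5.0e-04, edgeR). Apob, the structural protein of chylomicrons, stood at 3739 and 3609 CPM against 5828 and 5927 and did not pass the test (-0.68, SE 0.33, adjusted p 0.147, edgeR). Another chylomicron protein gene, Apoa4, was at 5309 and 5425 CPM against 16072 and 16381 and did not pass it either (-1.60, adjusted p 0.0526, edgeR).

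The 3 members that rose included 2 alkaline phosphatases. Akp3 was at 50249 and 52575 CPM against 293 and 299 in E18 WT, and took 3.60% and 3.77% of all reads of the libraries labelled deleted at E13. edgeR called it (log2 fold change 7.44, SE 0.50, adjusted p 3.4e-07), but DESeq2 gave an adjusted p of 0.0855. It was at 2537 and 2714 CPM in the libraries labelled deleted at E15 and at 0.600 and 0.604 in E16 WT. Alpi was at 21321 and 22322 CPM against 4104 and 4254 (log2 fold change 2.38, SE 0.51, adjusted p 0.0021, edgeR), a call lost when each pair was summed (adjusted p 0.076). The 2 genes are close relatives, and how reads that match both were counted is not given in the sources used here. Slc26a3, a chloride and bicarbonate exchanger, was at 1882 and 1782 CPM against 417 in both (2.13, SE 0.20, adjusted p 1.1e-06, edgeR).

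**Figure D3:**
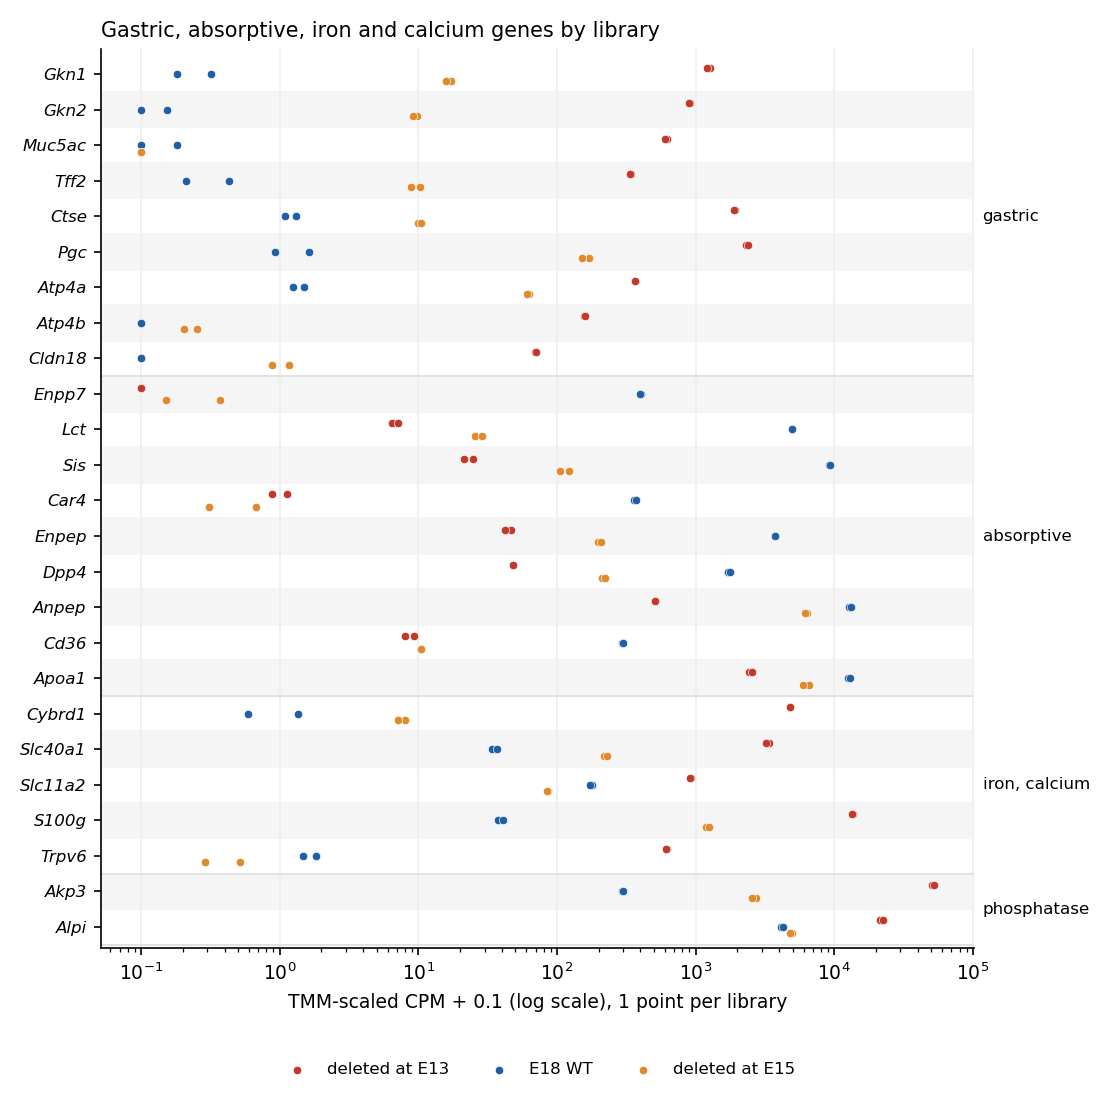
CPM plus 0.1 on a log axis for gastric, absorptive, iron and calcium and alkaline phosphatase genes, 1 point per library, in the libraries labelled deleted at E13, E18 WT and libraries labelled deleted at E15 (2 each). The 9 gastric genes lie right of both other groups in the libraries labelled deleted at E13, and the 9 absorptive genes lie left of E18 WT in them.

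Lct and Sis, the lactase of milk and the sucrase of the adult diet, were both far lower. Of 12 suckling-period genes tested 5 were called lower and 2 higher (7.91% and 8.19% of all genes), or 4 and 0 with each pair summed. The 2 higher calls, the endocytic genes Lrp2 and Dab2, were also lost when any 1 of the 4 libraries was left out. Of 15 weaning-period and adult digestive genes 6 were lower and 3 higher, against the same shares of all genes, or 3 and 2 with each pair summed. The summed level of these 15 genes was higher, at 79893 and 82114 CPM against 46114 and 46482, and Akp3 alone made up 50249 and 52575 CPM of it against 293 and 299. Lct was at 6.32 and 7.05 CPM against 4919 and 4921 in E18 WT and 423 and 483 in E16 WT (log2 fold change against E18 WT -9.52, SE 0.43, adjusted p 2.2e-11, edgeR). Pck1, which makes glucose from other carbon sources, was at 2.19 and 2.63 CPM against 775 and 778 (-8.33, SE 0.70, adjusted p 1.1e-07, edgeR). Sis was at 24.8 and 21.3 CPM against 9169 and 9281 (-8.65, SE 1.34, adjusted p 3.4e-04, edgeR), and adult libraries labelled knockout held 134 and 216 CPM. The trehalase gene Treh was at 370 and 367 CPM against 1421 and 1406 (-1.94, SE 0.12, adjusted p 1.1e-06, edgeR), and Mgam, maltase-glucoamylase, at 2023 and 1947 against 6959 and 6869, with a call that DESeq2 did not give (adjusted p 0.0526). Treh and Mgam were thus lower than in E18 WT yet above E16 WT, where Treh had 0 counts and Mgam 89.0 and 110 CPM. Fut2, a fucosyltransferase, went the other way, at 101 and 106 CPM against 1.15 and 1.37 (6.34, SE 1.03, adjusted p 1.2e-04, edgeR).

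Several genes that mark the duodenal end of the small intestine rose. Of 9 proximal small intestine genes tested 5 were called higher (8.19% of all genes) and 0 lower, with a median log2 fold change of 2.38, and the same number when each pair was summed. Cybrd1, the ferric reductase of the apical membrane, was at 4771 and 4754 CPM against 0.493 and 1.26 (log2 fold change 12.30, SE 0.74, adjusted p 4.0e-10, edgeR). Slc40a1, the iron exporter ferroportin, was at 3404 and 3238 CPM against 33.9 and 36.7 (6.55, SE 0.17, adjusted p 4.4e-15, edgeR), and the iron importer Slc11a2 at 922 and 910 against 180 and 173 (2.38, SE 0.16, adjusted p 2.4e-09, edgeR). Cybrd1 was at 13.7 and 17.6 CPM in E16 WT and 1.89 to 17.4 in all 4 adult libraries, far below the labelled deletion in each. Heph, the ferroxidase that works with ferroportin, was at 570 and 535 CPM against 567 and 569 and was not called.

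Of 3 region factors on this list, 2 were called. Pdx1, a homeobox gene of duodenum, antrum and pancreas, was at 121 and 123 CPM against 13.5 and 13.1 (log2 fold change 3.19, SE 0.44, adjusted p 2.7e-05, edgeR). Onecut2, a duodenal factor, was at 505 and 490 CPM against 87.3 and 85.7 (2.52, SE 0.24, adjusted p 1.7e-07, edgeR), while Gata4 stood at 352 and 379 against 260 and 265 and was not called. The labels name the small intestine without a segment, so the position along it was not known for either group.

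Further genes of mineral handling were named after their values were seen. S100g, the calcium carrier calbindin-D9k, was at 13711 and 13526 CPM against 37.6 and 40.4 (log2 fold change 8.45, SE 0.47, adjusted p 1.5e-10, edgeR). The apical calcium channel Trpv6 was at 618 and 610 CPM against 1.73 and 1.37 (8.65, SE 0.58, adjusted p 2.0e-09, edgeR), and the calcium pump gene Atp2b1 at 2040 and 2008 against 171 and 170 (3.57, SE 0.14, adjusted p 1.7e-12, edgeR). Ferritin genes that store iron were higher as well, Fth1 at 10826 and 11879 CPM against 4458 and 4673, and Ftl1 at 4754 and 5074 against 1773 and 1782. Tfrc, the transferrin receptor, was lower, at 140 and 135 CPM against 283 and 285 (-1.04, SE 0.19, adjusted p 3.0e-04, edgeR). Vdr, the vitamin D receptor, was at 808 and 818 CPM against 689 and 698 and did not pass the test.

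Cytochrome P450 genes, which oxidise drugs, steroids and fatty acids, split between directions. Of 20 tested, 8 were called higher and 5 lower, beside 8.19% and 7.91% of all genes. With each pair summed these were 4 and 2, beside 4.80% and 3.75%. Cyp4a10, a fatty acid hydroxylase, was at 176 and 175 CPM against 19.3 and 19.5 (log2 fold change 3.18, SE 0.33, adjusted p 5.3e-05, edgeR). Cyp27a1, a sterol hydroxylase, was at 10.1 and 10.3 CPM against 208 and 214 (-4.37, SE 0.68, adjusted p 7.4e-05, edgeR), and Cyp2j6 at 91.9 and 86.5 against 594 and 600 (-2.74, SE 0.19, adjusted p 2.5e-09, edgeR). Cyp2c29 was at 513 and 522 CPM against 5.01 and 4.50, called by edgeR (adjusted p 7.6e-06) but not by DESeq2 (adjusted p 0.575), and it belongs to a family of near-identical copies whose shared reads may be split. Cyp3a11, at 9052 and 9186 CPM against 2051 and 2154, was not called (2.12, SE 0.99, adjusted p 0.156, edgeR).

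Host defence genes went both ways, as edgeR called them. Of 21 antimicrobial and inflammatory genes tested 4 were called lower and 2 higher, 6 genes against 16.1% called among all, and with each pair summed 1 was lower and 0 higher. Reg3a, a secreted lectin, was at 2.40 and 2.10 CPM against 715 and 710 (log2 fold change -8.30, SE 0.83, adjusted p 1.2e-05, edgeR), a call DESeq2 did not give (adjusted p 0.17). Of 7 class II antigen presentation genes 2 were called higher (8.19% of all genes) and 0 lower, and both calls were lost with each pair summed. Cd74, the invariant chain, was at 1750 and 1813 CPM against 489 and 528 (log2 fold change 1.81, SE 0.50, adjusted p 0.0112, edgeR). Leaving out E18 WT replicate 1 or 2, or replicate 2 of the labelled deletion, ended that call (adjusted p 0.0936, 0.0761 and 0.0519), as did DESeq2 (0.103). H2-Aa, at 913 and 908 CPM against 205 in both, had an adjusted p of 0.0487 with edgeR and 0.0525 with RLE scaling.

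Of 17 goblet cell genes 5 were called higher (8.19% of all genes) and 0 lower, and 1 was higher with each pair summed (4.80% of all genes). Clca3, a secreted goblet protein gene, was at 2161 and 2150 CPM against 833 and 834 (log2 fold change 1.37, SE 0.28, adjusted p 9.3e-04 with edgeR, and 0.051 with each pair summed). Of 21 enteroendocrine genes 1 was higher and 2 were lower, or 1 and 0 with each pair summed, beside 16.1% called among all genes. Gast, the gastrin gene of the antrum, was at 65.1 and 61.6 CPM against 0 in both, at least 308-fold higher, while the granin genes Chga and Chgb, at 259 and 263 against 182 and 184 CPM and at 443 and 439 against 347 and 341, were not called. Of 9 tuft cell genes tested, 2 were higher and 1 lower (8.19% and 7.91% of all genes), calls that were all lost with each pair summed.

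Progenitor genes were mixed and cell division genes were nearly all uncalled. Of 14 stem cell genes 5 were called higher and 3 lower (8.19% and 7.91% of all genes), or 4 and 1 with each pair summed (4.80% and 3.75%). Sox9, a factor of crypts and fetal progenitors, was at 76.8 and 82.9 CPM against 11.8 and 13.1 (log2 fold change 2.67, SE 0.18, adjusted p 1.5e-09, edgeR), and Ephb3, a receptor of the crypt base, at 47.7 and 48.5 against 6.82 and 7.85 (2.71, SE 0.27, adjusted p 3.4e-07, edgeR). Lgr5, the stem cell receptor, was lower at 2.03 and 1.65 CPM against 5.75 and 6.81 (-1.77, SE 0.35, adjusted p 8.9e-04, edgeR). Of 24 cell cycle genes 1 was called, beside 16.1% called among all genes. It was the nucleotide reductase subunit Rrm2, at 62.0 and 61.6 CPM against 23.7 in both (1.38, SE 0.19, adjusted p 1.5e-05, edgeR). Mki67 was at 174 and 167 CPM against 194 and 191.

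Of 24 intestinal transcription factors 2 were called higher and 3 lower, near the 8.19% and 7.91% over all genes, or 2 and 1 with each pair summed, with a median log2 fold change of -0.25. Prdm1, the factor that holds back the weaning switch, was at 6.41 and 6.82 CPM against 22.8 and 25.1 (log2 fold change -1.86, SE 0.24, adjusted p 8.3e-06, edgeR), and 79.9 on average in E16 WT. Foxa2 and Foxa3, forkhead factors of the gut tube, were higher, at 16.7 and 17.9 CPM against 4.44 and 3.13 and at 21.0 and 21.5 CPM against 6.66 and 7.63. Cdx1, the nearest relative of Cdx2, was at 101 and 106 CPM against 91.3 and 92.4 and was not called.

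**Figure D4:**
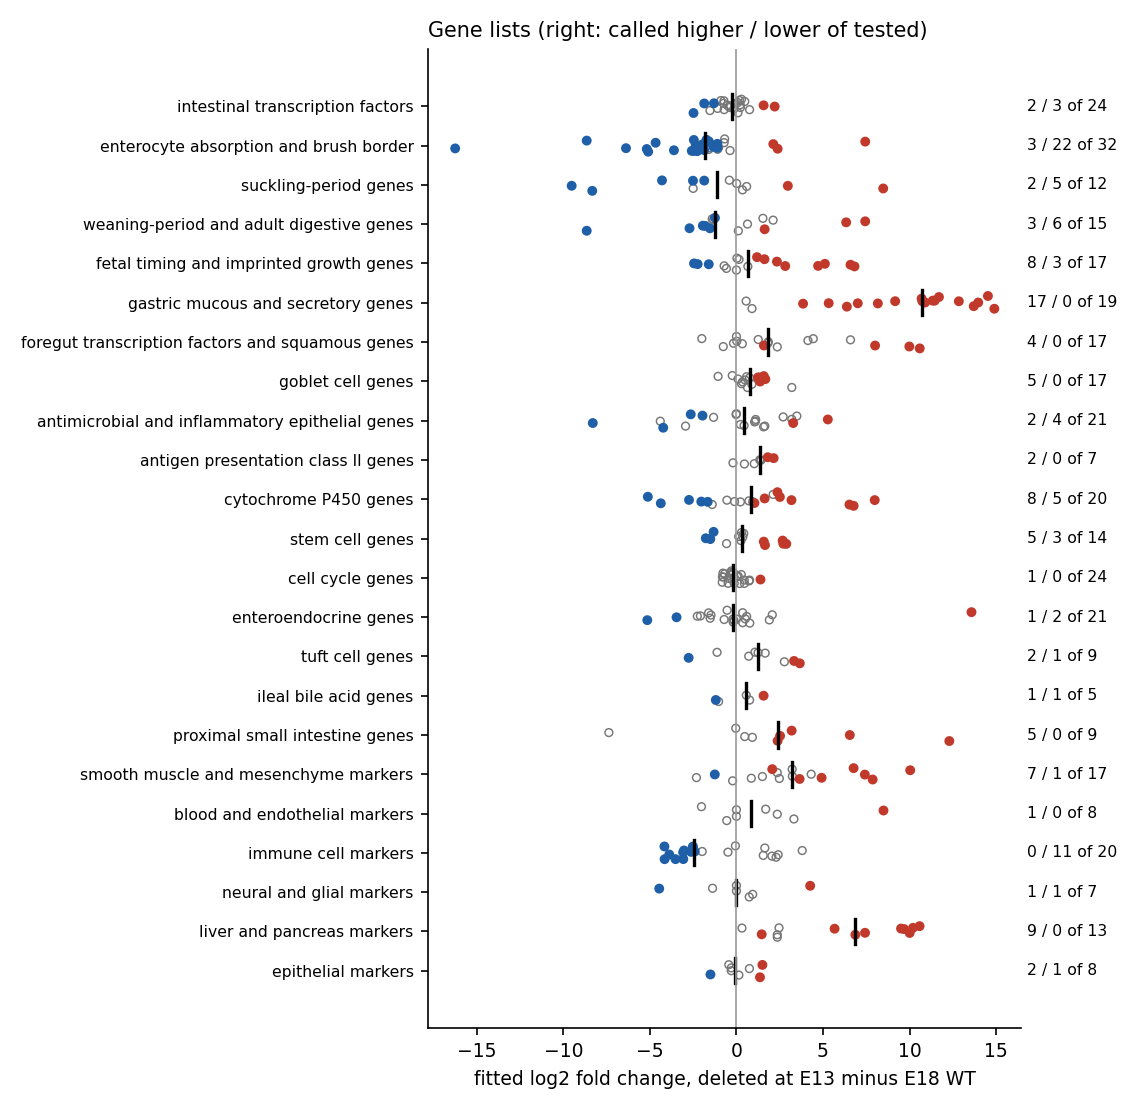
Fitted log2 fold changes (libraries labelled deleted at E13 minus E18 WT) by gene list, 1 point per tested gene, filled red or blue where called higher or lower and open where not called, with the list median as a black bar. Numbers at the right give genes called higher and lower of those tested. The gastric list lies almost whole to the right, at 17 of 19, and the absorptive list mostly to the left, at 22 of 32.

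Markers of immune cells were lower in the labelled deletion. Of 20 immune markers 11 were called lower (7.91% of all genes) and 0 higher, or 5 lower with each pair summed, and the summed level was 369 and 377 CPM in the labelled deletion, 3089 and 3139 in E18 WT and 233 and 238 in E16 WT. Ccl5, Gzmb and Cd7, which intraepithelial lymphocytes express, were at 37.3 and 35.4, 38.8 and 39.8, and 27.4 and 25.7 CPM, against 640 and 663, 679 and 715, and 297 and 312 in E18 WT. The libraries labelled deleted at E15, prepared like E18 WT without a sort, had a sum of 80.4 and 87.2 CPM. Of 8 blood and endothelial markers tested 1 was higher and 0 lower, and the 7 neural and glial markers had 1 each way, near the 8.19% and 7.91% over all genes, and these calls were lost with each pair summed. Of 8 epithelial markers 2 were higher and 1 lower, beside the same shares of all genes, with sums of 14321 and 14512 CPM against 11960 and 11742. The part of these cells in the genes above was not tested.

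Immediate-early and heat-shock genes, which cells switch on within minutes of handling, were listed after their values were seen. Of 18, 17 were called lower and 0 higher (7.91% and 8.19% of all genes), with a median log2 fold change of -4.45. With each pair summed, 16 were called lower (3.75% of all genes). Fosb was at 0.951 and 1.34 CPM against 1293 and 1339 in E18 WT (log2 fold change -10.17, SE 0.48, adjusted p 1.7e-11, edgeR), and 270 and 281 in E16 WT. Hspa1a, a stress chaperone gene, was at 3.22 and 2.90 CPM against 389 and 401, and 6.04 and 11.8 in E16 WT. The summed level of the 18 genes was 983 and 1028 CPM in the labelled deletion, 13188 and 13519 in E18 WT, 10519 and 10535 in E16 WT and 7873 and 8311 in the libraries labelled deleted at E15. The libraries labelled deleted at E13 thus stood below these 3 groups, and below the adult libraries at 1901 to 2851 CPM. Of these groups, E16 WT had the same trypsin and Epcam sort as the labelled deletion. Sex also differed: the Y-linked genes Ddx3y, Eif2s3y, Kdm5d and Uty had 0 counts in the libraries labelled deleted at E13 and 86.8 and 95.4, 78.6 and 75.9, 36.5 in both, and 23.7 and 25.1 CPM in E18 WT. Xist was at 840 and 810 CPM against 0.164 and 0.165. Of the 10 lower genes of largest change, 4 were these Y-linked genes. The part of sex and handling in other genes was not tested.

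Genes changed in 3 comparisons that share no library with this one were then read here. Of 1037 tested genes called higher in the adult libraries labelled knockout against adult WT, a comparison that called 20.4% of its genes, 390 (37.6%) were higher in the labelled deletion at E13 and 49 (4.73%) lower, with a median log2 fold change of 0.86. Of 1490 called lower in the adult comparison, 568 (38.1%) were lower here and 52 (3.49%) higher, with a median of -1.10. The 390 genes were 27.6% of all higher genes here and the 568 were 41.7% of all lower genes, from sets that held 6.02% and 8.64% of all genes tested. The first set held Gkn1, Gkn2 and Cldn18 among the genes that rose and Fosb among those that fell, and the second held Enpp7, Osr2 and Dnase1 among those that fell and Slc40a1 among those that rose. With each pair summed, 276 and 288 genes were called in the same directions.

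The comparison of the labelled E10 deletion with E16 WT, in which 51.5% of genes were called, was read in the same way. Of 4122 higher genes there, 550 (13.3%) were higher here and 174 (4.22%) lower. Of 4753 lower genes, 705 (14.8%) were lower here and 340 (7.15%) higher. The 550 and 705 genes were 39.0% of all higher and 51.7% of all lower genes here, while the sets they come from held 23.9% and 27.6% of all genes tested. Muc5ac and Atp4b were in the first set and Lct in the second. For age, 3593 tested genes were higher in adult WT ileum than in E16 WT, where 46.9% of genes were called, and 585 of them (16.3%) were lower here against 249 (6.93%) higher. Of 4484 genes lower in the adult, 641 (14.3%) were higher here and 323 (7.20%) lower. The 585 were 42.9% of all lower genes here and the 641 were 45.4% of all higher genes, from sets that held 20.8% and 26.0% of all genes tested. Enpp7 and Slc5a12 were among the adult genes that were lower in the labelled deletion, and Cldn18 and Cybrd1 among the genes lower in the adult that were higher in it. Kit and gut region changed with age in that reference and cannot be told apart from it.

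**Figure D5:**
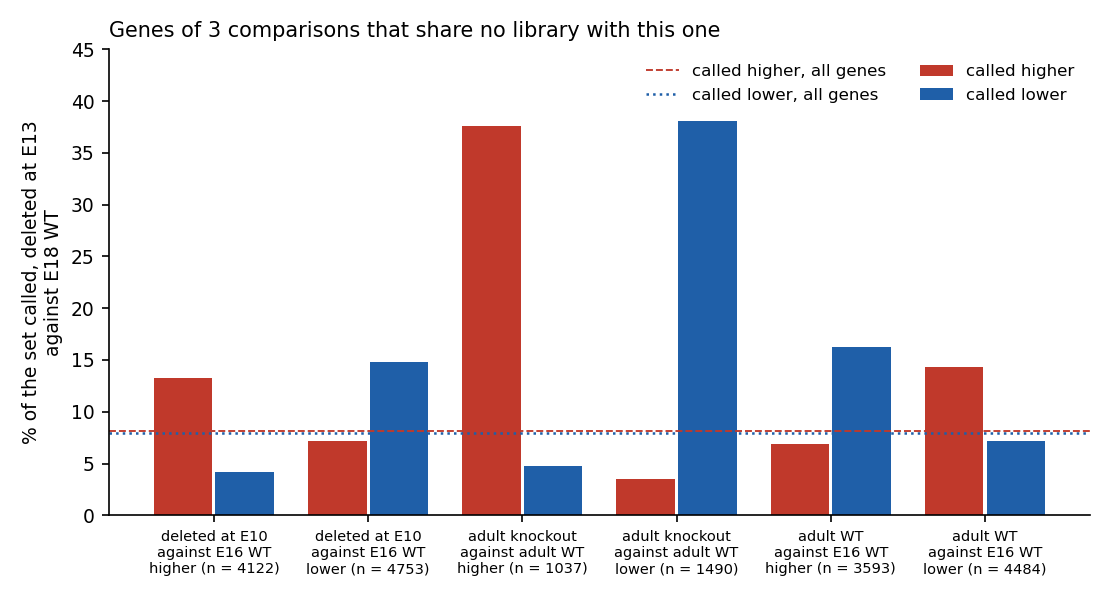
Share of each reference set called higher (red) or lower (blue) in libraries labelled deleted at E13 against E18 WT, in percent, with dashed and dotted lines for the shares of all tested genes (8.19% and 7.91%). The bars at 37.6% and 38.1% belong to genes called higher and lower in the adult libraries labelled knockout.

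The libraries labelled deleted at E15, also Villin-Cre with 5 mg of tamoxifen and collected at E18, were tested directly against the labelled E13 deletion, a comparison that shares the libraries labelled deleted at E13 with the one above. Their cells were prepared as those of E18 WT, without a sort. The test called 2130 genes (12.4%), of which 1250 (7.25%) had more reads in the labelled E13 deletion and 880 (5.10%) fewer. Of 19 gastric genes 15 were higher and 1, Gkn3, was lower, and of 9 proximal small intestine genes 6 were higher. Muc5ac had 0 counts in both libraries labelled deleted at E15, and Gkn1 was at a mean of 16.4 CPM there against 1278 and 1214 (log2 difference 6.25, edgeR). Pgc was at 151 and 169 CPM against 2325 and 2402, and Cybrd1 at 7.07 and 7.96 against 4771 and 4754. Of 32 absorptive genes 5 were lower and 3 higher. Enpep was at 197 and 206 CPM in the libraries labelled deleted at E15 and Lct at 25.7 and 28.8, both above the 46.5 and 42.4 and the 6.32 and 7.05 of the labelled E13 deletion and far below E18 WT. Of 24 cell cycle genes 16 were lower in the labelled E13 deletion, Mki67 at 174 and 167 CPM against a mean of 555, and of 7 class II genes 6 were higher. Markers of other cells differed too, with 14 of 20 immune and 8 of 17 mesenchyme markers higher and 0 lower in each. Of 13 liver and pancreas markers 7 were higher and 1 lower. Of the 18 immediate-early and heat-shock genes, 14 were lower and 0 higher.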

How the data were processed

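Gene expression was measured by 75 bp single-end RNA-seq of SMARTer libraries, per the labels' protocols. The authors deposited raw read counts per gene for the whole series. Per the submitters' processing notes, which give tools without roles, STAR 2.5.3a and HTSeq were used with the mm9 genome. The strand setting and the handling of reads shared by related genes are not given in the sources used here. Groups came from the labels. Of the deposited columns, 2 matched no sample and were not used. In the 4 adult columns the values slip against the gene names below blank cells, and they were moved back into register (Spearman's rho with E18 WT over the affected stretches 0.283 to 0.495 as deposited, 0.931 to 0.973 after).

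The test was that of edgeR (version 4.0.16, R version 4.3.3) on these counts: TMM scaling, filterByExpr with a minimum count of 10, and 1 quasi-likelihood fit over 27 embryonic libraries in 13 groups. A gene was called at a Benjamini-Hochberg adjusted p below 0.05 and an absolute log2 fold change of at least 1. The adult knockout reference set came from a fit of the 4 adult libraries alone, and the set of adult against E16 WT from a fit of all 31 libraries. DESeq2 1.42.0 was an alternative. In simulated data the fit recovered 13 of 50 genes changed 2-fold, 27 of 50 at 4-fold, 30 of 50 at 8-fold and 36 of 50 at 16-fold, with 6 false calls among 16952 genes tested. The simulated libraries were drawn as independent samples with the fitted spread. The false calls therefore do not give the rate in the real data, where the spread within a pair may be technical.

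The members and gene lists were chosen with earlier results of these data known. The named genes were Cdx2, the 10 called genes per direction of largest change at a mean log2 CPM of 2 or more, and, per list, up to 4 called members per direction and 2 members not called. That mean was taken over the 27 embryonic libraries. The immediate-early, sex-linked and calcium lists were chosen after their values were seen, as were these named genes: Amy2a5, Anpep, Apoa1, Atp2b1, Atp4a, Cd36, Cdx1, Ctse, Fabp1, Fth1, Ftl1, Gata4, Gif, Gkn3, H19, Hspa1a, Igf2, Lipf, Muc6, Pgc, S100g, Slc11a2, Tff1, Tff2, Tfrc, Trpv6, Ttr and Xist. Sequences came from RefSeq GRCm38.p6 promoter windows, matched by symbol, and no coordinates were used with mm9. The level of 1 further gene is not reported here.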

Additional observations from a re-analysis of the deposited data

Results flagged for a closer look

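Several leading genes differed between the group labelled deleted at E13 and that labelled deleted at E15 in edgeR's test of the difference itself, which called 2130 genes in all. Values below are fitted log2 differences, E13 minus E15, that depend on the prior count where a group had 0 counts.

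Stomach genes were higher in the libraries labelled deleted at E13, by 10.17 for Atp4b, 14.65 for Chia1, 6.58 for Gkn2, 16.85 for Muc5ac, 6.20 for Cldn18, 10.31 for Gast and 6.25 for Gkn1. Pla2g1b, Igfbp5 and 1810010D01Rik were higher by 10.66, 6.70 and 7.93.

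Of the genes far below E18 WT, Slc5a12 differed by -6.73, Osr2 by -10.78 and the immediate-early gene Fosb by -8.77. The Y-linked genes Ddx3y, Eif2s3y, Kdm5d and Uty differed by -13.95, -13.94, -13.02 and -12.61, since the libraries labelled deleted at E15 held them at 29.8 to 86.7 CPM and those labelled deleted at E13 at 0.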

How the results depend on the processing

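No called named gene changed direction under the alternatives run. The call of 2775 genes (1412 higher, 1363 lower) went to 4376 with no fold minimum, 2344 of them higher. A fit of the 4 libraries alone called 2162 lower, and 2158 with the replicate number as a block. With each pair summed to 1 library, chosen after seeing the data, 1520 genes passed, 853 higher and 667 lower. Leave-one-out over the 4 libraries gave 1950 to 2027 genes, 964 to 1118 higher and 865 to 1036 lower; an arm then had 1 library, assumed to vary like the other groups. Counts under RLE scaling, DESeq2, no filter, all 31 libraries and thinning were within 1.5 times. More genes were higher than lower in the reported fit, but fewer under RLE scaling (1363 and 1389), DESeq2 (1417 and 1456), the fit of the 4 libraries (1878 and 2162), thinning (1368 and 1369) and without E18 WT replicate 1 (991 and 1036) or 2 (964 and 986).

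With reference sets taken at a log2 fold change of at least 2, the shares moved to 15.8% (E10 higher, called higher), 17.5% (E10 lower, called lower), 48.3% and 45.5% (adult knockout, same directions), 19.9% (higher in adult, called lower), 18.5% and 8.14% (lower in adult, called higher and lower). With the adult set from the fit of all 31 libraries, 43.6% of its lower genes were lower and 5.73% higher. The cause was not tested.

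Of 153 named genes called, DESeq2 called 137 of the 152 it gave a value, leaving out 1 library kept 120 to 130, and summed pairs kept 110. The replicate numbers did not pair the samples (r = 0.012 across genes between replicate differences), and with the block in the fit of 27 libraries 2852 genes were called. Depth limits genes near 3 counts per library.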
